A study of Homo sapiens with 8 samples.

Results

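The tumor suppressor p53 is a transcription factor that switches on genes for cell cycle arrest, DNA repair and cell death when DNA is damaged or ribosome assembly is disturbed. MDM2, itself a target, ubiquitinates p53 and closes a feedback loop, and its relative MDM4 binds and restrains the same activation domain. Rhabdoid tumors lose SMARCB1, a core subunit of the mSWI/SNF chromatin remodeling complexes. The p53 pathway was followed here through 30 genes, 2 of them the regulators MDM2 and MDM4 and the others known target genes, out of 20719 genes listed in the files. The genes were a given list, matched by Ensembl ID to symbols, and each symbol matched 1 ID.

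The cells were G401, established from a rhabdoid tumor of the kidney, and the assay was ribosome profiling, in which fragments protected by translating ribosomes (footprints) were counted per coding sequence. One G401 line carries SMARCB1 and the other GFP under a doxycycline-dependent TET on system, and each was treated for 12 h with DMSO or with 0.1 μg/ml doxycycline (Dox). The 4 groups, called SMARCB1 Dox, SMARCB1 DMSO, GFP Dox and GFP DMSO, have 2 libraries each. Cells of several plates were pooled for each condition, and nothing states that the replicates came from separate cultures, so p-values measure only the spread between these libraries. A difference between the lines cannot be told apart from a difference between the derivations that carry either gene. Without RNA-seq, which was not analysed here, occupancy cannot be divided into RNA level and ribosomes per RNA, and fewer expressing cells cannot be told apart from less RNA per cell. SMARCB1 itself was counted 2553 and 1750 times in SMARCB1 Dox and 0 times in the other 6 libraries. Taking 3 counts as the limit for the pooled SMARCB1 DMSO libraries, it was at least 1616-fold higher with Dox. VIM, KRT8 and KRT18, which rhabdoid cells express, were abundant, the leukocyte markers PTPRC, CD3E and CD14 had 0 counts, while the endothelial markers PECAM1 and CDH5 had at most 3 in a library. A library held 5924443 to 14000039 counts on genes. Reads that aligned to several places took 25.6% to 39.7% of the entries of 7 libraries, and 56.4% of those of GFP Dox replicate 1. Values were tested for 11097 genes in one edgeR quasi-likelihood fit of all libraries, and a gene was called at an adjusted p-value (Benjamini-Hochberg over all genes tested) below 0.05.

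p53 binds DNA as a tetramer at a pair of decamers, each with an invariant C and G in its core. Promoter sequences from RefSeq (GRCh38.p14), 250 bases before to 50 bases after each start site, were found for 24 of the 30 genes. An adjoining pair of p53 decamers of 20 bases in all was sought, with the C and G of each decamer intact. At most 2 mismatches to the consensus were allowed elsewhere, also at the bases between that C and G. Such a pair was present for 4 of these 24 genes, or 16.7%. Over all genes with a promoter sequence, 98 of 27305, or 0.359%, had such a pair. The list was chosen as known p53 targets and regulators, which favors a higher share, so the contrast is no test. The consensus is its own reverse complement, so both strands were covered. The pairs are shown in capitals with 5 flanking bases on each side, because they are the only sites of this kind in the windows of the matched genes.
MDM2: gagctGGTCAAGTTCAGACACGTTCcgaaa
FAS: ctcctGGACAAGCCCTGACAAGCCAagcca
AEN: gagccGGGCTTGCCCGGGCATGTGGgagct
DDB2: gctccAAGCTGGTTTGAACAAGCCCtgggc
The MDM2 pair lay at chr12:68808923-68808942, 101 and 94 bases before 2 of its start sites. The FAS pair lay at chr10:88991309-88991328, 122 bases before a start site. The AEN pair lay at chr15:88621306-88621325 and began 34 bases before the start site. The DDB2 pair, at chr11:47214969-47214988, began 5 bases before the start site, and it had 1 mismatch against 2 in each of the others. All 4 are on the plus strand. A match is a description of letters and no evidence of binding, and other parts of these genes were not searched.

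PLK2 and PLK3, Polo-like kinases, had no such pair. Their upstream bases are given because PLK2 was called between the lines in both conditions and PLK3 with Dox. The PLK3 call was lost when some libraries were left out. The share of listed genes called was near that of all genes, as given below. The sequences, on the coding strand, hold no base of either annotated gene.
PLK2: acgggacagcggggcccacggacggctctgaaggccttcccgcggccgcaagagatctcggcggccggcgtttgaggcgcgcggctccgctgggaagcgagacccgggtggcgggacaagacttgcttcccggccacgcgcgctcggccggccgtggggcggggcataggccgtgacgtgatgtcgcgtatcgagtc
PLK3: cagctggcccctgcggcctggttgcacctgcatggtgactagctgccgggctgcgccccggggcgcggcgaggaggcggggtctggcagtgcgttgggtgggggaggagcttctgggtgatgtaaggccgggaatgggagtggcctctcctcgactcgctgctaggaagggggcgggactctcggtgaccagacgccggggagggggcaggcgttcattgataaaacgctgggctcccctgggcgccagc
The PLK2 stretch is the minus strand of chr5:58460140-58460336, with 73.1% G and C. The PLK3 stretch is the plus strand of chr1:44800127-44800376, with 70.0% G and C.

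Of the 30 genes, 27 were tested. PMAIP1 (NOXA, a BH3-only inducer of cell death), TNFRSF10A (a TRAIL death receptor) and SPATA18 (a mediator of mitochondrial quality control) had 0 counts in all 8 libraries, which allows up to 0.0393 CPM (counts scaled to 1000000 per library) over the pooled libraries. Such limits cover counting error only. The 30 genes held between 0.154% and 0.177% of the gene counts of a library, and MDM2 and CCNG1 together made up 27.6% to 35.5% of that.

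Levels between genes were compared as CPM per kilobase of coding sequence, averaged over the 8 libraries. The median of the 27 tested genes was 33.5 CPM per kilobase, against 17.2 over 11096 tested genes with a coding length. That median is the value of TIGAR, of whose coding bases only 177 are not shared with another gene. Over those bases alone TIGAR would stand at 153 and the median at 37.3, and without TIGAR the median of the other 26 was 31.7. CCNG1, encoding cyclin G1, stood highest with 280 CPM per kilobase. MDM2 followed with 160, ranging from 126 to 210 over the libraries, below every CCNG1 value. TRIAP1, a small survival protein, had 125 CPM per kilobase, and TNFRSF10B, the other TRAIL receptor listed, had 102. The range of TRIAP1 over the libraries, 99.3 to 176, overlapped those of MDM2 and TNFRSF10B, whereas TNFRSF10B, at 86.2 to 123, lay below every MDM2 value. At the low end, PLK3 averaged 7.89 CPM per kilobase. BBC3 (PUMA, a BH3-only protein) averaged 2.97 and BTG2, an antiproliferative protein, 2.30. FAS, the death receptor, was the lowest of the 27 with 0.597 CPM per kilobase, from 2.19 and 1.85 in SMARCB1 Dox and 0 to 0.457 in the other 6 libraries. Thus death receptor genes occupied both ends of the order, TNFRSF10B near the top and FAS and TNFRSF10A at the bottom. The BH3-only genes BBC3 and PMAIP1 were both at the bottom.

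**Figure D1:**
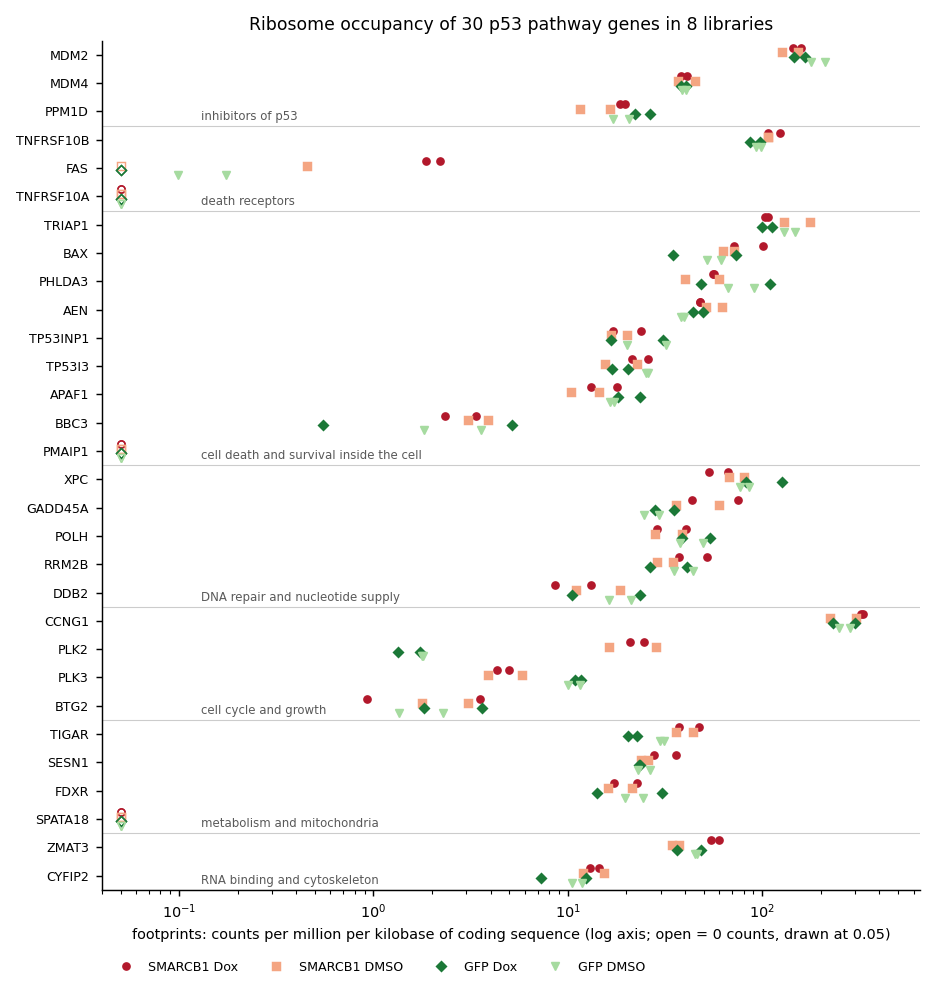
Footprint levels of the 30 genes in CPM per kilobase of coding sequence (log axis), 1 symbol per library, grouped by role and colored by group. Open symbols stand for 0 counts and are drawn at 0.05. CCNG1 and MDM2 sit highest, PLK2 and PLK3 separate the SMARCB1 line (red and orange) from the GFP line (greens), and PMAIP1, TNFRSF10A and SPATA18 have 0 counts throughout.

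To assess whether 12 h of SMARCB1 re-expression altered occupancy of p53 pathway genes, SMARCB1 Dox was compared with SMARCB1 DMSO. None of the 27 tested genes was called by edgeR, where 0.018% of all genes tested were called (2 of 11097). DESeq2, run as an alternative, called 0 of the 27 as well. At an unadjusted p-value below 0.05 there were 3 of 27, against 4.97% of all genes tested. FAS was among these 3, and it passed the filter on low counts only through the 2 SMARCB1 Dox libraries. Without FAS there were 2 of 26. Log2 fold changes were positive for 13 genes and negative for 14, with a median of -0.01, against -0.02 over all genes tested. The libraries of the 2 groups did not overlap for 9 of 27 genes, FAS among them, against 35.1% of all genes tested. For 20 of the 27 genes the 95% interval of the effect lay within a 2-fold change in either direction, and BBC3, FAS, ZMAT3, XPC, DDB2, BTG2 and TRIAP1 were the 7 for which it did not.

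The 3 genes with the smallest p-values were FAS, ZMAT3 and TRIAP1. FAS, which transmits the signal of FAS ligand to the caspases, had 36 and 16 counts in SMARCB1 Dox, or 3.16 and 2.66 CPM. In SMARCB1 DMSO it had 0 and 9 counts, or 0 and 0.657 CPM. Both Dox libraries lay above both DMSO libraries, on few counts. The pooled counts give a ratio of 6.51, given as a description because FAS passed the filter only through SMARCB1 Dox, where it was high. The fitted log2 fold change of 2.67 ± 1.03 (SE) has the same limit and was not called by edgeR (adjusted p = 0.851). Leaving out a library in turn gave ratios from 4.55 to 6.88, and at least 5.90 without SMARCB1 DMSO replicate 2, where the remaining count was 0.

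ZMAT3, a zinc finger protein that binds AU-rich RNA, had 72.1 and 65.4 CPM in SMARCB1 Dox and 44.9 and 41.0 CPM in SMARCB1 DMSO. The groups did not overlap, and the log2 fold change was 0.57 ± 0.23 (SE, adjusted p = 0.875 by edgeR). TRIAP1 had 23.6 and 24.5 CPM in SMARCB1 Dox and 29.5 and 40.1 CPM in SMARCB1 DMSO. Here the Dox libraries were the lower pair, with a log2 fold change of -0.66 ± 0.27 (SE, adjusted p = 0.925 by edgeR). In the GFP line the Dox libraries of TRIAP1 were also the lower pair, with a log2 fold change of -0.30 ± 0.27 (SE).

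Genes of each role are given next by their log2 fold changes, of which none passed the test. Among the inhibitors of p53, MDM2 had 280 and 254 CPM in SMARCB1 Dox and 269 and 223 CPM in SMARCB1 DMSO, and its log2 fold change was 0.01 with a 95% interval of -0.47 to 0.50. MDM4 gave -0.15, and PPM1D, the phosphatase WIP1 that acts on p53 and its kinases, gave 0.35. For PPM1D both Dox libraries, at 38.4 and 40.6 CPM, lay above both DMSO libraries, at 34.1 and 23.9 CPM, and the 95% interval was -0.24 to 0.94. Among death genes inside the cell, BAX, which permeabilizes the mitochondrial outer membrane, gave 0.24 and APAF1, the scaffold of the apoptosome, gave 0.24. The others in this role with a value close to 0 were TP53I3, a quinone oxidoreductase, with 0.18, TP53INP1, an autophagy factor, with 0.065, and PHLDA3, an AKT repressor, with 0.034. BBC3 gave -0.36 ± 0.78 (SE), on few counts. AEN, a p53-induced nuclease, gave -0.37 with both Dox libraries below both DMSO libraries. The 5 repair and nucleotide supply genes ranged from -0.58 for DDB2, a damage recognition protein, to 0.38 for RRM2B, a subunit of ribonucleotide reductase. XPC, the partner of DDB2 in recognizing DNA lesions, gave -0.42, GADD45A, a stress sensor, 0.15, and POLH, the translesion polymerase eta, -0.040. Signs therefore differed among genes of one role. The 4 cell cycle genes ranged from -0.41 for BTG2 to 0.21 for CCNG1. In metabolism, SESN1, a leucine-binding inhibitor of mTORC1 signaling, gave 0.26, while TIGAR, which lowers fructose-2,6-bisphosphate, and FDXR, ferredoxin reductase, gave -0.01 and -0.03. CYFIP2, a subunit of the WAVE actin regulatory complex, gave -0.09, and TNFRSF10B -0.01.

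The control for doxycycline itself is the GFP line. Of the 27 genes edgeR called 0, where 0.0% of all genes tested were called, and DESeq2 called 0. None had an unadjusted p-value below 0.05, against 2.16% of all genes tested. The median log2 fold change was 0.03, against 0.02 over all genes tested, and 9 of 27 genes had groups that did not overlap, against 25.4% of all genes. FAS was among these 9, with 0 counts in both GFP Dox libraries and only 3 and 2 counts in GFP DMSO. Apart from FAS, the log2 fold changes ran from -0.42 for TIGAR to 0.64 for BTG2. The smallest p-values belonged to XPC, PPM1D and TIGAR. XPC had 354 and 233 CPM in GFP Dox and 217 and 241 CPM in GFP DMSO, a log2 fold change of 0.48 ± 0.29 (SE). The high value was that of GFP Dox replicate 1, the library with the large share of reads with several alignments, and the groups overlapped. Without it the log2 fold change of XPC was -0.02. PPM1D had 55.0 and 45.7 CPM in GFP Dox against 42.9 and 35.2 CPM in GFP DMSO, a log2 fold change of 0.47 ± 0.27 (SE). TIGAR had 16.4 and 18.4 CPM against 24.2 and 25.4 CPM, with a log2 fold change of -0.42 ± 0.27 (SE). Neither pair of groups overlapped, and edgeR gave both genes, and XPC, an adjusted p of 1.

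**Figure D2:**
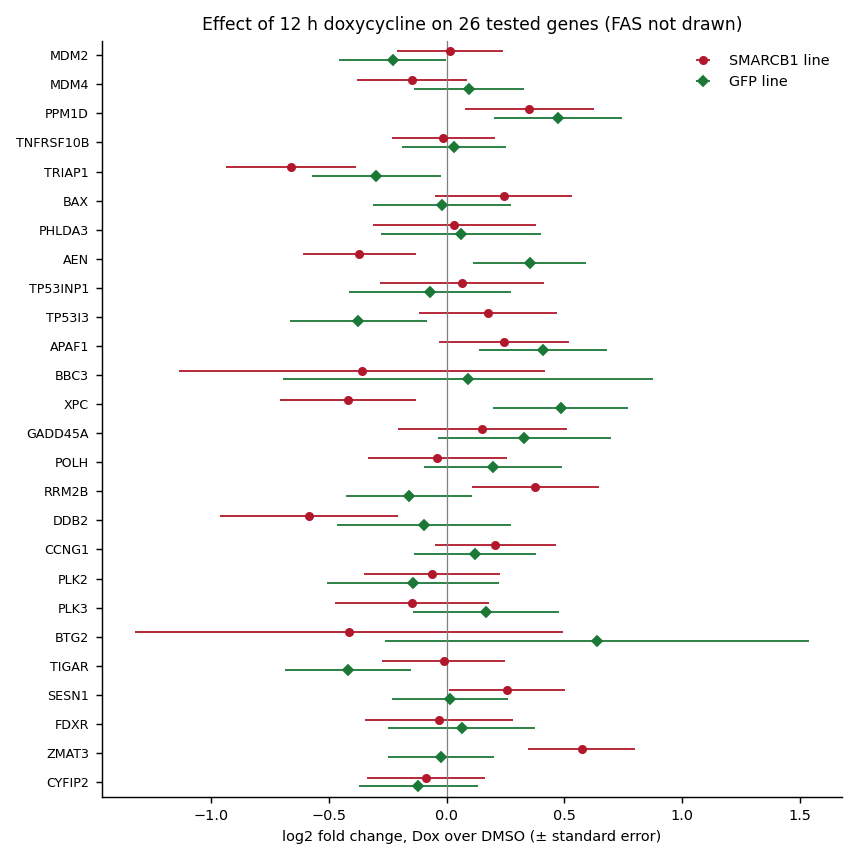
Log2 fold change of Dox over DMSO with its standard error for 26 of the 27 tested genes, in the SMARCB1 line (red circles) and the GFP line (green diamonds). FAS is left out because its GFP Dox libraries have 0 counts. None of the values was called, and the widest bars belong to BTG2 and BBC3, the genes with few counts.

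The difference between the 2 Dox effects tests whether SMARCB1 changed a gene beyond what GFP induction did. None of 27 genes was called by edgeR, where 0.0% of all genes tested were called, and DESeq2 called 0. Before adjustment, 2 of 27, FAS and XPC, had p below 0.05, against 3.99% of all genes tested. FAS passed the filter only through SMARCB1 Dox, and without FAS there was 1 of 26, XPC. The high XPC value of the GFP line, 354 CPM, was that of GFP Dox replicate 1. The smallest p-values were those of FAS, XPC and AEN. For XPC the SMARCB1 line gave -0.42 and the GFP line 0.48, a difference of -0.90 ± 0.41 (SE, adjusted p = 0.981 by edgeR). For AEN the values were -0.37 and 0.35, a difference of -0.72 ± 0.34 (SE, adjusted p = 0.981 by edgeR). AEN had 46.5 and 46.5 CPM in SMARCB1 Dox, 50.1 and 60.6 CPM in SMARCB1 DMSO, 42.7 and 48.5 CPM in GFP Dox and 37.3 and 38.6 CPM in GFP DMSO. FAS had 0 counts in both GFP Dox libraries, which allows 0.433 and 0.467 CPM, and 3 and 2 counts in GFP DMSO (adjusted p = 0.981 by edgeR). These counts do not show a change of FAS with Dox in the GFP line. For 19 of the 27 genes the 95% interval of the difference reached a 2-fold change, so this comparison left room for unequal responses in most genes.

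The lines were next compared with each other. In the uninduced lines, where neither expressed SMARCB1, 1 of 27 genes was called by edgeR, or 3.70%, against 5.29% of all genes tested (587 of 11097). The libraries of the lines did not overlap for 16 of 27 genes, against 45.4% of all genes. The gene called was PLK2, a Polo-like kinase of centriole duplication and a p53 target. PLK2 (ENSG00000145632, chr5:58453982-58460139, minus strand) had 58.6 and 33.3 CPM in SMARCB1 DMSO and 3.67 and 3.71 CPM in GFP DMSO, from 347, 456, 44 and 52 counts. Every library of the SMARCB1 line lay far above both GFP libraries, although the 2 SMARCB1 libraries themselves differed. The log2 difference was 3.68 ± 0.33 (SE), or 12.8-fold (adjusted p = 4.82e-06 by edgeR).

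With Dox in both lines, PLK2 and PLK3 were called by edgeR, 2 of the 26 tested genes other than FAS, or 7.69%, against 6.55% of all genes tested (727 of 11097). With at least 10 counts required in every library they were 2 of 24, against 4.30% of all genes. The libraries did not overlap for 14 of 27 genes, FAS among them, against 45.1% of all genes. PLK2 had 50.8 and 42.6 CPM in SMARCB1 Dox and 2.74 and 3.58 CPM in GFP Dox. The ratio was 13.6-fold, with a log2 difference of 3.76 ± 0.35 (SE, adjusted p = 7.75e-06 by edgeR). The Dox effect on PLK2 was -0.06 (95% interval -0.68 to 0.56) in the SMARCB1 line and -0.14 (95% interval -0.92 to 0.64) in the GFP line. Over alternatives and left-out libraries the log2 difference stayed between 3.29 and 3.99 for the uninduced lines and between 3.62 and 3.89 with Dox.

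PLK3, a relative of PLK2 that responds to genotoxic stress, lay the other way. PLK3 (ENSG00000173846, chr1:44800377-44805990, plus strand) had 8.42 and 9.66 CPM in SMARCB1 Dox and 22.5 and 21.2 CPM in GFP Dox, and was 2.67-fold lower in the SMARCB1 line (log2 difference -1.42 ± 0.32 SE, adjusted p = 0.0151 by edgeR). In the uninduced lines it had 11.3 and 7.52 CPM against 22.4 and 19.3 CPM. That log2 difference of -1.10 ± 0.32 (SE) missed the threshold (adjusted p = 0.0630 by edgeR). In neither condition did the lines overlap. The call with Dox was lost without either SMARCB1 Dox library or without GFP Dox replicate 1 (adjusted p from 0.0612 to 0.183), while DESeq2 also called the uninduced difference (adjusted p = 0.0316).

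FAS had 52 counts in SMARCB1 Dox and 0 in GFP Dox, at least 13.3-fold more against 3 counts in the pooled GFP Dox libraries. This is given as a description, with no test, because FAS entered the test only through SMARCB1 Dox, the group where it was high. With any 1 of the 4 libraries left out, the bound ranged from 6.40-fold to 14.1-fold. In the uninduced lines 9 and 5 counts gave a ratio of 2.39 with an exact counting interval of 0.718 to 9.06.

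**Figure D3:**
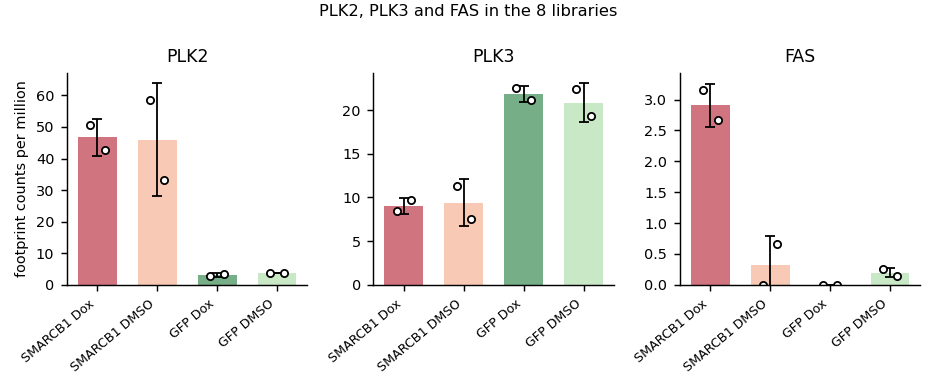
CPM of PLK2, PLK3 and FAS in the 4 groups; bars are means of 2 libraries, whiskers the SD, and circles single libraries. PLK2 is high in both groups of the SMARCB1 line, PLK3 is high in both groups of the GFP line, and FAS stands out in SMARCB1 Dox alone, where its libraries have 36 and 16 counts.

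The same pattern was sought over all 8 libraries. In 5 of 27 genes the 4 libraries of a line lay wholly beyond the 4 of the other, or 18.5%, against 16.9% of all genes tested. They were PLK2, TNFRSF10B, GADD45A and TIGAR, with the SMARCB1 line on top, and PLK3, with the GFP line on top. TNFRSF10B had 140 to 162 CPM in the SMARCB1 line and 114 to 130 CPM in the GFP line, a small gap on a well-covered gene (log2 differences 0.23 ± 0.22 SE uninduced and 0.19 ± 0.22 SE with Dox). GADD45A had 17.9 to 37.0 CPM in the SMARCB1 line and 12.2 to 17.3 CPM in the GFP line. Its log2 difference was 0.93 ± 0.36 (SE, adjusted p = 0.219 by edgeR) in the uninduced lines and 0.75 ± 0.37 (SE, adjusted p = 0.295 by edgeR) with Dox. TIGAR had 29.0 to 38.0 CPM in the SMARCB1 line and 16.4 to 25.4 CPM in the GFP line. Its log2 difference was 0.44 ± 0.26 (SE) in the uninduced lines and 0.85 ± 0.27 (SE, adjusted p = 0.0827 by edgeR) with Dox. Of the coding bases of TIGAR, 78.1% also belong to an overlapping readthrough gene on the same strand, and strict counting leaves such reads to neither, so the TIGAR counts rest on the other bases. No other gene of the 30 shared coding bases.

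XPC gave a log2 difference of -0.96 ± 0.29 (SE, adjusted p = 0.0647 by edgeR) between the lines with Dox and of -0.06 ± 0.29 (SE) without it. The first value includes GFP Dox replicate 1, whose XPC value was the highest of the 8 libraries. MDM2 had 269 and 223 CPM in SMARCB1 DMSO and 372 and 316 CPM in GFP DMSO, and its log2 difference of -0.42 ± 0.23 (SE) did not pass (adjusted p = 0.472 by edgeR). The sign of the line difference was shared by both conditions in 19 of 27 genes. The share over all genes is not given here, so this count describes the listed genes only. It includes FAS, whose sign in the uninduced lines rests on 9 against 5 counts. The median of the 27 log2 differences was 0.06 in the uninduced lines and -0.10 with Dox, against 0.02 and -0.01 over all genes tested.

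**Figure D4:**
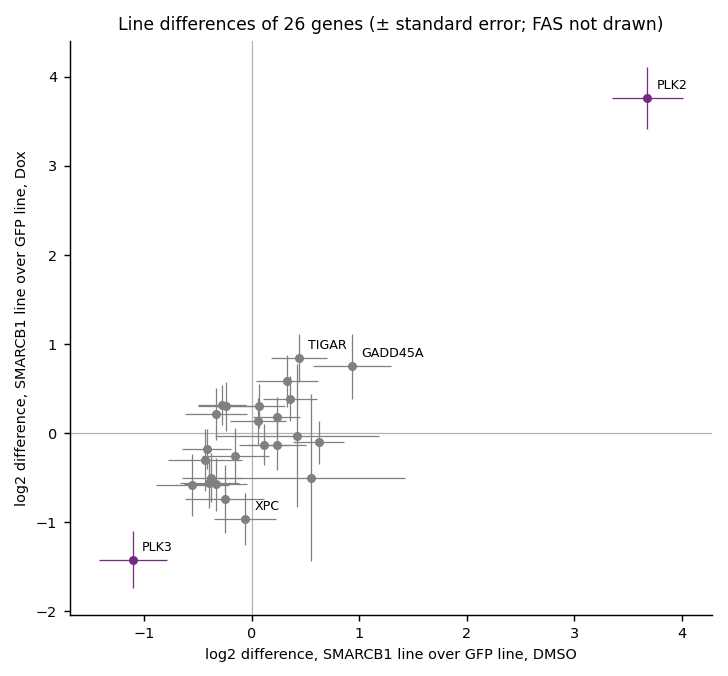
Log2 difference of the SMARCB1 line over the GFP line for 26 tested genes, under DMSO (horizontal) and under Dox (vertical), with standard errors. PLK2 lies at 3.68 and 3.76, PLK3 at -1.10 and -1.42 (both purple, called under at least 1 condition), and the other genes lie within about 1 log2 unit of 0; FAS is left out because of its 0 counts.

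Around these genes stand relatives, kinases and cofactors of p53, and further targets. CDKN1A, the inhibitor p21 and the classic arrest target, had 11.0 and 14.8 CPM in SMARCB1 Dox, 6.58 and 12.2 CPM in SMARCB1 DMSO, 13.7 and 19.6 CPM in GFP Dox and a mean of 18.4 ± 4.85 CPM (SD, n = 2) in GFP DMSO. The Dox effect in the SMARCB1 line was 0.29 (95% interval -0.51 to 1.10) and the line difference under DMSO -0.86 ± 0.37 (SE, adjusted p = 0.295 by edgeR). Of the 23 listed relatives, kinases and cofactors, 21 were tested and 0 were called in either Dox comparison. Between the lines, 0 were called under DMSO, against 5.29% of all genes, and 1, the checkpoint kinase CHEK2, with Dox (4.76%, against 6.55% of all genes). CHEK2 had 12.7 and 14.3 CPM in SMARCB1 Dox, 27.8 and 33.9 CPM in GFP Dox, 25.7 and 25.4 CPM in SMARCB1 DMSO and a mean of 32.1 ± 3.03 CPM (SD, n = 2) in GFP DMSO. The SMARCB1 Dox libraries were the lowest, with a log2 difference from GFP Dox of -1.32 ± 0.27 (SE, adjusted p = 0.00683 by edgeR). The call was lost without SMARCB1 Dox replicate 1 (adjusted p = 0.122) or replicate 2 (adjusted p = 0.0580). Against SMARCB1 DMSO the log2 fold change was -1.03 ± 0.27 (SE, adjusted p = 0.364 by edgeR), and the test of the difference between both lines' Dox effects gave -1.06 ± 0.37 (SE, adjusted p = 0.981 by edgeR). Of 30 further targets, 27 were tested, 0 were called with Dox in either line, and 0 between the lines with Dox, against 6.55% of all genes. In the uninduced lines 1 was called, the stress cytokine GDF15 (3.70%, against 5.29% of all genes). GDF15 had 35.6 and 29.6 CPM in SMARCB1 DMSO and 16.7 and 17.2 CPM in GFP DMSO, a log2 difference of 1.01 ± 0.27 (SE, adjusted p = 0.0418 by edgeR). That call was lost when any 1 of the 4 libraries was left out (adjusted p from 0.0965 to 0.335).

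How far the replicates of a group lay apart sets what these comparisons could show. Over 24 of the genes with at least 10 counts in every library, replicates differed by more than 1.5-fold for 2 genes in SMARCB1 Dox, 5 in SMARCB1 DMSO, 8 in GFP Dox and 1 in GFP DMSO. Over 9424 genes the shares were 12.8%, 27.8%, 40.1% and 8.33%. In GFP Dox, replicate 1 was lower by more than 2-fold for PHLDA3, DDB2, FDXR and BAX. In all 4 groups the log2 ratio of replicate 1 to replicate 2 was lower for genes with a GC-rich coding sequence. Over the 24 genes, Pearson's r between the ratio and the GC content was -0.53 in SMARCB1 Dox, -0.57 in SMARCB1 DMSO, -0.44 in GFP Dox and -0.60 in GFP DMSO, and over 9424 genes it was -0.34, -0.26, -0.26 and -0.49. These are descriptions across genes of the same libraries, and genes are not independent replicates. The part of this in the Dox and line comparisons was not tested.

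**Figure D5:**
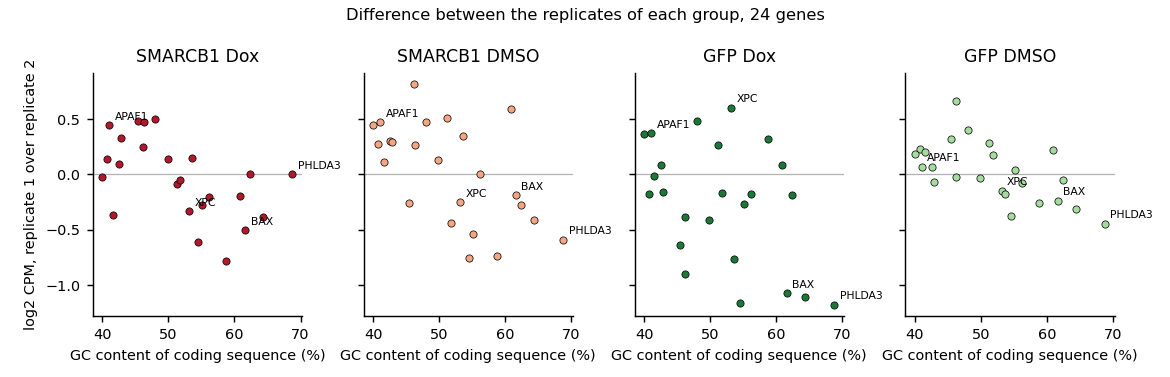
Log2 ratio of replicate 1 to replicate 2 against the GC content of the coding sequence for 24 genes, 1 panel per group. In each panel the GC-rich genes, such as BAX and PHLDA3, tend to lie lower than the GC-poor ones, such as APAF1, and GFP Dox has the widest spread.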

How the data were processed

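The deposited values are raw counts of ribosome footprints per gene: the authors prepared libraries with the RiboLace kit, aligned them to hg38 with STAR and counted reads on coding sequences of GENCODE annotation 42 with HTSeq in intersection-strict mode. Adapter and duplicate handling and the strand option are not given in the sources used here. The 5 HTSeq summary entries of each file were left out. Symbols and positions (GRCh38) come from GENCODE 44, and 905 IDs had no symbol there. CPM are counts scaled to 1000000 on each library's gene total. Fold changes come from edgeR 4.0.16 (R 4.3.3): filterByExpr by group, TMM scaling, glmQLFit on all 8 libraries with 1 term per group, and quasi-likelihood tests, with SE from the F statistic. The alternatives, among them DESeq2 1.42.0, each replicate left out and the replicate block, are described at the end. Full statistics are given for genes called in any comparison and for the 3 with the smallest p in each Dox comparison. Values of other genes, such as GADD45A, TNFRSF10B, MDM2 and CHEK2 with Dox, were chosen after being seen or by role. The genes, their roles and the further lists were chosen with earlier results of these data known. One gene of the naming rule is not reported here. Replicates differed by more than the sampling noise (chi-square per degree of freedom 14.7 to 44.8). Exact intervals of count ratios and limits from 3 counts cover counting error only, while intervals of log2 values come from the edgeR fit and include the spread between libraries.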

Additional observations from a re-analysis of the deposited data

How the results depend on the processing

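In the Dox comparisons and in their difference, 0 of the 27 genes were called under every alternative run, the left-out replicates included. In the uninduced lines the count was 1, where 5.29% of all genes were called. It became 2, with PLK3 added, under DESeq2's Wald test (6.7% of all genes) and without a filter on low counts (5.26%). The same 2 were called in a fit of only the groups compared (7.07% of all genes) and with the replicate block (6.79%). FAS passed the filter on low counts only through SMARCB1 Dox, where it was high, so its call between the lines with Dox is no test. With Dox in both lines the count was 2 of 26 genes without FAS (PLK2 and PLK3), and 3 with FAS included. It was 1 without either SMARCB1 Dox library or GFP Dox replicate 1, which left PLK2, and 5 without GFP Dox replicate 2, where PLK2, PLK3, XPC, POLH and BAX were called. XPC was also called with Dox by DESeq2 (adjusted p = 0.0219) and without a filter (adjusted p = 0.0105). GDF15 was also lost with library size alone and under the filter of at least 10 counts per library, and FAS could not be fitted under that filter.

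Several uncalled log2 values changed sign. For Dox in the SMARCB1 line, PLK2 became 0.033 with library size alone. With 1 library left out the values in that comparison ranged over -0.38 to 0.32 for PLK2, -0.38 to 0.093 for PLK3 and -0.096 to 0.91 for CDKN1A. For Dox in the GFP line they ranged over -0.10 to 0.045 for ZMAT3, -0.018 to 0.85 for XPC and -0.024 to 0.33 for PLK3, the change of sign coming without GFP Dox replicate 1. They ranged over -0.23 to 0.47 for PLK2 in the difference of Dox effects, and over -3.89 to 1.82 for the fitted line difference of FAS under DMSO, whose negative value rests on the 0 counts left without SMARCB1 DMSO replicate 2. The other causes were not tested. Library size alone moved the median over all genes from -0.03 to 0.16 (difference of Dox effects), from -0.02 to 0.09 (Dox, SMARCB1 line) and from -0.01 to 0.11 (lines with Dox).

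Replicate numbers are shared by the 4 groups, but no source ties them to a batch, so the numbers were not taken as a pairing. Deviations of same-numbered libraries correlated at 0.05 to 0.28 over genes, positive in all 6 pairs of groups and below 0.1 for 1. The ratio of replicate 1 to replicate 2 also fell with GC content in all 4 groups. The replicate block is therefore given as an alternative. With the replicate block, 2 genes were called in the uninduced lines (PLK2, PLK3), where 6.79% of all genes were called. With Dox, PLK2, PLK3 and TIGAR (adjusted p = 0.0447 by edgeR) were called, where 8.31% of all genes were called. FAS is left out here because it passed the filter on low counts only through SMARCB1 Dox. Depth limits the genes with few counts, FAS, BTG2 and BBC3, and with 2 libraries per group outliers within a group could not be sought.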
